A study of Mus musculus with 6 samples.

Results

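The integrated stress response is described here through 10 genes, chosen by name for their place in the pathway: the kinase gene Eif2ak3, the transcription factor genes Atf4, Atf5 and Ddit3, the target genes Trib3, Asns, Chac1 and Sesn2, the growth inhibitor gene Ddit4 and the phosphatase gene Ppp1r15a. The choice was made with earlier results of these data known. All 10 genes were found among the 20409 features of the count table, of which 20073 carry Ensembl identifiers. Their RNA was measured in villus epithelium of the mouse duodenum, with 1 bulk library per mouse and 3 mice in each group. Double mutant (DM) mice carried Smad4 fl/fl, the Ctnnb1 allele exon3 fl/wt and the Villin-CreERT2 transgene, whose Cre enzyme is active throughout the intestinal epithelium once tamoxifen is given, so that Smad4 is lost and β-catenin is stabilised. They received tamoxifen at 0.05 g/kg in 4 daily intraperitoneal injections, and villi were taken at 7 days. Wild-type (WT) mice were littermates that received no injection, so the mutations and tamoxifen cannot be told apart in these groups. Each group held 1 male and 2 females, matched for age by the study's methods, which give no age for these mice.

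In the integrated stress response, kinases that sense a stress phosphorylate the translation factor eIF2α, which lowers protein synthesis as a whole while the Atf4 mRNA is translated more. ATF4 protein then switches on genes for amino acid supply, the factor CHOP (from Ddit3), the pseudokinase TRIB3 and the phosphatase subunit GADD34 (from Ppp1r15a), which removes the phosphate again. Because ATF4 is controlled largely in translation, mRNA counts alone do not show how much ATF4 protein the cells held.

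The 10 genes did not move together. Asns, Ddit4 and Ppp1r15a rose in the double mutant villi, Trib3, Ddit3 and Eif2ak3 fell, and Atf4, Atf5 and Sesn2 did not pass the test. Asns and Trib3, both classical ATF4 targets, went opposite ways: Asns, which makes asparagine, rose 2.51-fold, and Trib3 fell 3.13-fold. Chac1 had too few counts to enter the main test. Under edgeR's quasi-likelihood test, with p adjusted by Benjamini-Hochberg over 13346 genes, 3 of the 9 tested members were called higher (33.3%), where 19.7% of all tested genes were, and 3 were called lower (33.3%), where 17.0% of all tested genes were. A gene is called when its adjusted p is under 0.05. In either direction 6 of 9 were called (66.7%), against 36.8% of all tested genes. Because the members were chosen with earlier results known, these shares are a description and the excess gives no support.

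Between 19678507 and 26337318 counts were assigned per mouse. A level is given in CPM, the count relative to library size, scaled between libraries by edgeR's TMM factors, and 3 counts corresponded to 0.125 to 0.163 CPM, a floor that covers counting error only. Smad4 itself had 120, 180 and 144 CPM in the WT mice and 26.0, 36.8 and 32.1 CPM in the DM mice, a log2 fold change of -2.22 (SE 0.187, adjusted p = 0.000145 by edgeR). Enterocyte markers took 4.49 to 4.93% of all counts in WT mice and 2.82 to 3.13% in DM mice, with 7 of 10 markers lower and 1 higher (lactase, Lct, had the largest fall, from 2871 to 696 CPM; Fabp1 rose, a call lost with a replicate block, with sex as a covariate and without WT mouse 2, WT mouse 3, DM mouse 2 or DM mouse 3). The stromal, endothelial and erythroid markers, of which 2 of the 8 in the table passed the filter on low counts, took 0.000159 to 0.000294% of counts in WT mice and 0.000394 to 0.000656% in DM mice, higher in every DM mouse; the fibroblast genes Col1a2, Col3a1 and Pdgfra had 0 counts in every WT mouse and at most 3 counts in any DM mouse. Of 8 stem cell markers, 4 rose (Lgr5, Smoc2, Rnf43 and Sox9; 6 without WT mouse 1 and 2 without DM mouse 1), and the list took 0.00798 to 0.0194% of counts in WT and 0.0343 to 0.0453% in DM mice. Of 8 tested leukocyte markers, 2 fell (Ptprc and Cd8a), against 6 without WT mouse 1, 3 without DM mouse 3 and 1 when any other mouse was left out, and that list's range in WT mice, 0.0648 to 0.271%, overlapped the range in DM mice, 0.122 to 0.337%. WT mouse 1 stood apart: goblet cell markers took 0.0114% of its counts against 1.06 and 1.08% in the other WT mice and 0.494 to 0.548% in DM mice, its Paneth cell markers took 0.000718% against at least 0.0152% in every other mouse, and its share on mitochondrial genes was the highest (6.60%, against 4.25 to 5.32%). Among the 8 goblet cell markers 1 was called, Clca1, which rose, whereas without WT mouse 1 there were 5 lower and 1 higher, and 3 of 5 Paneth cell markers were then lower. Results that rest on this mouse are given with and without it, and the part of these markers in the results was not tested.

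The start regions of the members are shown first, because 4 of the genes carry a letter-perfect match to an element through which ATF4 or related factors are known to act. The RefSeq promoters (build GRCm38.p6, 250 bases before to 50 after the start site; the counts themselves were made on mm9) gave 11 windows for the 10 genes, since Atf5 has a pair of starts. The C/EBP-ATF element was searched as TGATGNAA and the cAMP response element as TGACGTCA, on both strands; neither pattern overlaps the other in these windows. The C/EBP-ATF element was found in 3 of 11 windows (27.3%), against 356 of 14646 promoters of genes in the count table (2.43%) and 3.97% of all 32851 RefSeq promoters. These were the windows of Asns, Trib3 and Chac1. The match of Asns lay from -23 to -16 relative to the start, that of Chac1 from -193 to -186, and that of Trib3 from 15 to 22 bases after it. The cAMP response element was found in 1 window, that of Ppp1r15a, from -12 to -5 (2.78% of the promoters of genes in the table hold it). The 30 bases around each match, in the direction of transcription and with the match in capitals, are the following, and the matches of Trib3 and Chac1 appear in reverse complement because they lie on the other strand.
Asns, chr6:7693214-7693243, minus strand: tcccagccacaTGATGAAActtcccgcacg
Trib3, chr2:152344028-152344057, minus strand: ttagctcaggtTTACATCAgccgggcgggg
Chac1, chr2:119351038-119351067, plus strand: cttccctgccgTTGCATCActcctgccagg
Ppp1r15a, chr7:45526262-45526291, minus strand: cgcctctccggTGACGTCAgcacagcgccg
The genes with the C/EBP-ATF element were thus Asns, which rose, Trib3, which fell, and Chac1, which did not enter the main test. No match in the windows of the other members says only that these letters are not there.

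For Asns, the member whose C/EBP-ATF element lies closest before its start, the whole stretch of 250 bases before the start site follows, with the element in capitals. In this stretch the element sits near the start, and no cAMP response element is present.
Asns, chr6:7693210-7693459, minus strand: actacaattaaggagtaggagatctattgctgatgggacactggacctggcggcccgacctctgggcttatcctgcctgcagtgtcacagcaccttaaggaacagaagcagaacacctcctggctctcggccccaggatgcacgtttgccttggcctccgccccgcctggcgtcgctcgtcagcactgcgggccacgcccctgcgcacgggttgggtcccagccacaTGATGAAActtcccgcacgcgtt

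Eif2ak3 (chromosome 6, 70794509-70855239 on mm9, plus strand, 19 exons after merging transcripts) encodes PERK, the eIF2α kinase that senses unfolded protein in the endoplasmic reticulum. Its level was 41.7, 48.9 and 39.6 CPM in WT mice 1 to 3 and 37.2, 27.6 and 30.1 CPM in DM mice 1 to 3. All DM mice lay below all WT mice, with a narrow gap between WT mouse 3 and DM mouse 1. Eif2ak3 fell by 0.46 on the log2 scale (SE 0.148, 95% interval -0.80 to -0.12, adjusted p = 0.0403 by edgeR), from 43.4 ± 4.86 to 31.6 ± 4.99 CPM (SD, n = 3 each). In bulk RNA, fewer cells of a type and less RNA per cell cannot be told apart, for this gene and for those that follow. The call was lost when libraries were scaled by their totals alone (-0.26, adjusted p = 0.205), and leaving out each mouse in turn kept it in 2 of 6 cases (adjusted p = 0.0197 to 0.132). Of the other kinases, named here for their role after their values were seen, Eif2ak1 (the heme-regulated kinase) fell by 0.47 (adjusted p = 0.00962), Eif2ak2 (PKR) differed by 0.07 (adjusted p = 0.717) and Eif2ak4 (GCN2, which senses uncharged tRNA) by 1.09 (adjusted p = 0.0664). Eif2ak3 took 19.1% ± 1.49 of the counts on the 4 kinase genes in WT mice and 16.5% ± 0.935 in DM mice, and the groups overlapped.

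Atf4 (chromosome 15, 80085614-80087970, plus strand), the central transcription factor, was by far the most abundant member. Its level was 159, 171 and 169 CPM in WT mice and 143, 166 and 124 CPM in DM mice. DM mouse 2 lay inside the WT range and the other DM mice below it. The mean was 166 ± 6.31 CPM in WT and 144 ± 20.8 CPM in DM mice, and the log2 difference of -0.21 (95% interval -0.49 to 0.08, adjusted p = 0.229 by edgeR) did not pass. The difference was -0.02 with library size alone, -0.11 without DM mouse 3 and -0.32 without DM mouse 2 (adjusted p = 0.0911), and it was not called in any of these fits.

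Atf5 (chromosome 7, 52067627-52072028, minus strand), a related factor that is likewise controlled in translation, had 4.04, 6.14 and 6.36 CPM in WT mice and 5.53, 9.27 and 8.16 CPM in DM mice. WT mouse 1 was the lowest and DM mouse 1 lay among the WT mice, so the groups overlapped. The log2 difference was 0.48 (95% interval -0.13 to 1.08, adjusted p = 0.197 by edgeR), and it was 0.29 without WT mouse 1 and 0.31 without DM mouse 2. Exons of Atf5 share 82 bases with Nup62 and with Il4i1 on the other strand, and the strand setting of the counting was not stated, so counts in that stretch cannot be assigned between them.

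Ddit3 (chromosome 10, 126727830-126733344, plus strand), which encodes CHOP, had 36.6, 19.1 and 21.1 CPM in WT mice and 12.4, 14.7 and 16.7 CPM in DM mice. All DM mice lay below all WT mice, and WT mouse 1 was far above the other WT mice. The gene fell by 0.81 on the log2 scale (SE 0.254, 95% interval -1.39 to -0.23, adjusted p = 0.0363 by edgeR), or 1.75-fold. Without WT mouse 1 the difference was -0.46 and was no longer called (adjusted p = 0.0565), and leaving out each mouse in turn kept the call in 2 of 6 cases, with adjusted p from 0.026 to 0.121. Scaling by library totals alone gave -0.61 (adjusted p = 0.0761). Ddit3 exons share 68 bases with Mars, a tRNA synthetase gene on the other strand that rose by 0.87 (adjusted p = 0.00327), the opposite direction to Ddit3.

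**Figure D1:**
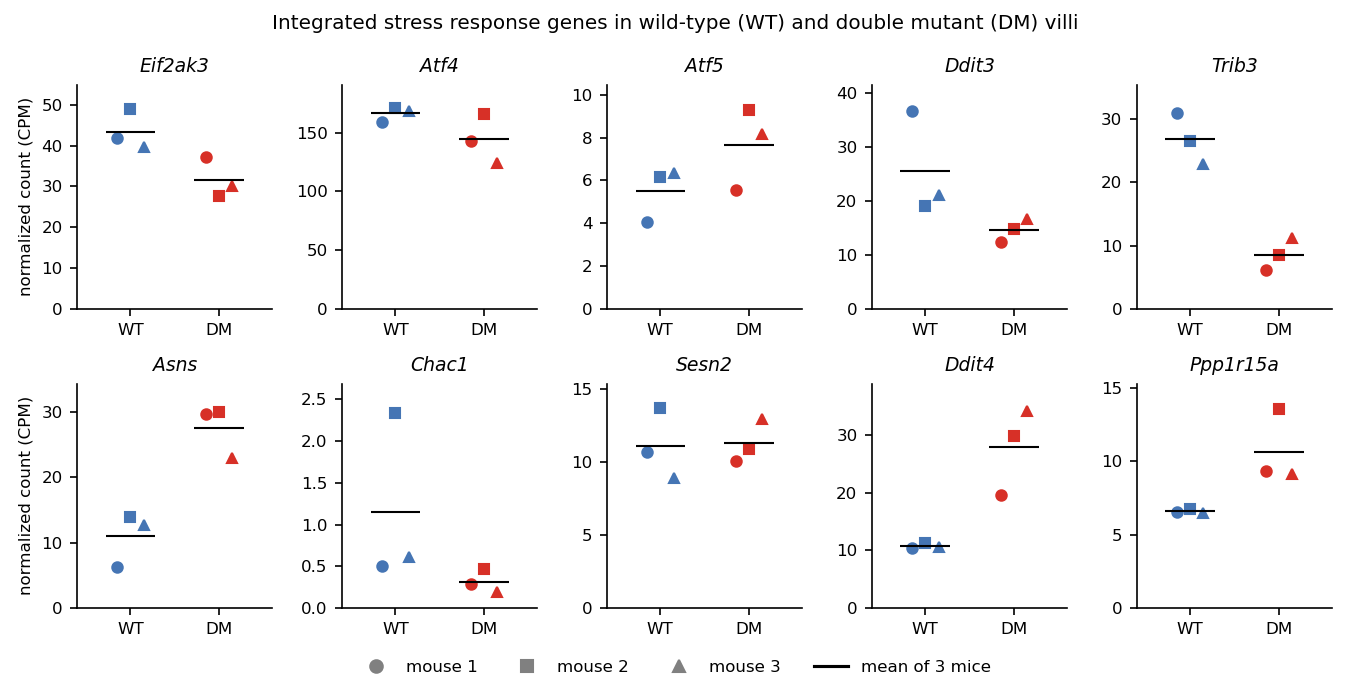
Level of each of the 10 genes in every mouse (y axis, CPM on a linear scale set separately for each panel; x axis, WT and DM), with 1 point per mouse, shaped by mouse number, and a line at the group mean. Trib3, Ddit3 and Eif2ak3 lie lower in all 3 DM mice and Asns, Ddit4 and Ppp1r15a higher, while Atf4, Atf5 and Sesn2 overlap; the high WT point of Ddit3 is WT mouse 1 at 36.6 CPM.

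Trib3 (chromosome 2, 152163158-152169768, minus strand) encodes a pseudokinase that is induced by ATF4 and CHOP and restrains ATF4 activity and AKT signalling. Its level was 31.0, 26.6 and 22.9 CPM in WT mice and 6.05, 8.48 and 11.2 CPM in DM mice. The highest DM mouse had less than any WT mouse. Trib3 fell by 1.65 on the log2 scale (SE 0.231, 95% interval -2.17 to -1.12, adjusted p = 0.00115 by edgeR), from 26.8 ± 4.09 to 8.57 ± 2.57 CPM. It was called under all 8 alternatives of processing and in each of the 6 fits with a mouse removed, and its log2 change without WT mouse 1 was -1.53 (adjusted p = 0.000903). Among the 9 tested members its log2 change was the largest in size.

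Asns (chromosome 6, 7625169-7643254, minus strand), asparagine synthetase, is the ATF4 target that makes asparagine from aspartate with glutamine as nitrogen donor. Its level was 6.33, 13.9 and 12.7 CPM in WT mice and 29.6, 29.98 and 22.95 CPM in DM mice. WT mouse 1 was the lowest, and every DM mouse lay well above every WT mouse. Asns rose by 1.33 on the log2 scale (SE 0.280, 95% interval 0.69 to 1.97, adjusted p = 0.00763 by edgeR), and without WT mouse 1 by 1.05 (adjusted p = 0.00125). Removing any of the 6 mice kept the call.

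Chac1 (chromosome 2, 119176965-119180117, plus strand), an enzyme that degrades glutathione and a target of ATF4 and CHOP, was scarcely expressed. It had 12, 43 and 12 counts in WT mice and 6, 10 and 4 counts in DM mice, or 0.499, 2.34 and 0.606 CPM against 0.281, 0.463 and 0.190 CPM. On this scale all DM mice lay below all WT mice, but relative to library totals alone DM mouse 2 (0.491) lay above WT mouse 1 (0.456), and the WT mean rested on WT mouse 2. WT mouse 1 lay just under the 0.498 that the filter asked, on that scale, of at least 3 mice, so Chac1 was not in the main test. When every gene was kept, the log2 difference was -1.83 (adjusted p = 0.0678 by edgeR), DESeq2 gave -1.89 (adjusted p = 0.063). Without WT mouse 1 the gene passed the filter, but through the other WT mice alone, so its value there (-2.21, adjusted p = 0.0252 by edgeR) gives no support.

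Sesn2 (chromosome 4, 132047947-132066416, minus strand) encodes sestrin 2, a leucine sensor that restrains the growth kinase mTORC1. Its level was 10.7, 13.7 and 8.89 CPM in WT mice and 10.1, 10.9 and 13.0 CPM in DM mice. The groups overlapped almost completely. The log2 difference was 0.03 (95% interval -0.43 to 0.49, adjusted p = 0.926 by edgeR), and its sign turned when WT mouse 3 or DM mouse 3 was left out.

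Ddit4 (chromosome 10, 59412423-59414518, minus strand) encodes REDD1, another inhibitor of mTORC1, which is induced by ATF4, hypoxia and glucocorticoids. Its level was 10.49, 11.3 and 10.5 CPM in WT mice and 19.7, 29.9 and 34.2 CPM in DM mice. The WT mice were within 1 CPM of each other and every DM mouse was above them. Ddit4 rose by 1.38 on the log2 scale (SE 0.205, 95% interval 0.91 to 1.84, adjusted p = 0.00149 by edgeR), or 2.60-fold, and removing any of the 6 mice kept the call (1.21 to 1.58). Counted within each mouse, there were 0.977, 0.822 and 1.18 Ddit4 counts per Sesn2 count in WT mice and 1.95, 2.74 and 2.64 in DM mice (exact permutation p = 0.1, two-sided, the smallest that 3 mice against 3 allow).

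Ppp1r15a (chromosome 7, 52778286-52781638, minus strand) encodes GADD34, the stress-induced subunit that brings a phosphatase to eIF2α. Its level was 6.53, 6.74 and 6.46 CPM in WT mice and 9.33, 13.5 and 9.10 CPM in DM mice. WT mice were nearly equal and all DM mice lay above them, with DM mouse 2 the highest. Ppp1r15a rose by 0.70 on the log2 scale (SE 0.203, 95% interval 0.23 to 1.16, adjusted p = 0.0269 by edgeR). The call was kept in 3 of the 6 fits with a mouse removed, and without DM mouse 2 the change was 0.49 (adjusted p = 0.11). Its constitutive counterpart Ppp1r15b fell by 0.69 (adjusted p = 0.00528), and per Ppp1r15b count there were 0.0199, 0.0159 and 0.0181 Ppp1r15a counts in WT mice against 0.0360, 0.0645 and 0.0423 in DM mice, although Ppp1r15b, at 369 ± 48.6 CPM in WT and 228 ± 27.1 CPM in DM mice, kept the higher count of the pair. Ppp1r15a exons share 12 bases with Tulp2, which had 0.535 CPM in WT mice.

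**Figure D2:**
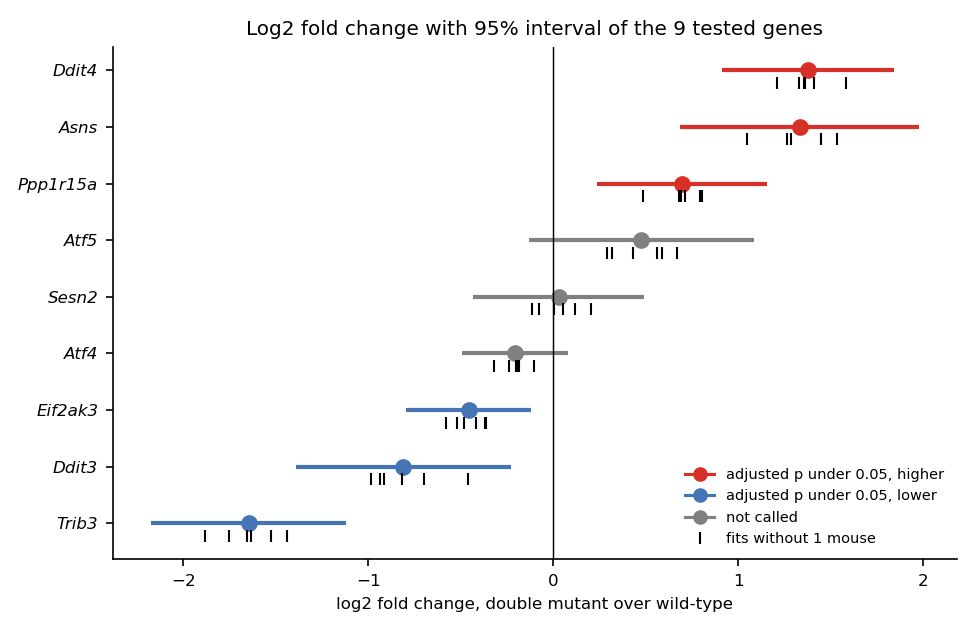
Log2 fold change of the 9 tested genes, DM relative to WT (x axis), with the 95% interval from edgeR's quasi-likelihood fit as a horizontal line, called genes in colour and uncalled genes in grey; the small black ticks are the 6 fits with a mouse removed. Trib3 stands at -1.65, Ddit4 at 1.38 and Asns at 1.33, while the intervals of Atf4, Atf5 and Sesn2 cross 0.

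Over all members, the groups did not overlap in TMM-scaled CPM for 7 of 10 genes, or 6 of the 9 tested, where 52.4% of all tested genes had groups that did not overlap. The median log2 fold change of the 9 tested members was 0.03, and that of all tested genes 0.02. The 10 genes together took 0.0288% ± 0.000934 of all counts in WT mice and 0.0304% ± 0.00219 in DM mice, and these overlapped (exact permutation p = 0.4, two-sided). Without Atf4, the other 9 took 0.0124 to 0.0139% in WT mice and 0.0141 to 0.0155% in DM mice, higher in every DM mouse (exact permutation p = 0.1, two-sided, the smallest this design allows). Atf4 took 54.0% ± 2.44 of the member counts in WT mice and 50.5% ± 3.97 in DM mice.

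Among the counts of the 9 other members, Trib3 took 21.0, 17.9 and 17.7% in WT mice and 4.65, 5.85 and 7.68% in DM mice. Ddit4 took 7.08, 7.60 and 8.13% in WT mice and 15.1, 20.7 and 23.5% in DM mice. Asns took 4.27, 9.32 and 9.85% in WT mice and 22.7, 20.7 and 15.8% in DM mice. None of these 3 pairs of groups overlapped, and Asns and Trib3 changed places. Within each mouse there were 0.204, 0.521 and 0.556 Asns counts per Trib3 count in the WT mice and 4.89, 3.54 and 2.05 in the DM mice, a geometric mean 8.43 times as high; the pair was chosen with its values known, and the exact permutation p of 0.1 is the smallest this design allows. Such a ratio needs no scaling between libraries, and it stayed above 6 when any mouse was left out (6.10 to 10.7). Relative to Atf4 itself, Asns had 0.0397, 0.0809 and 0.0754 counts per Atf4 count in WT mice and 0.207, 0.181 and 0.185 in DM mice, while Trib3 had 0.195, 0.155 and 0.136 in WT and 0.0424, 0.0512 and 0.0902 in DM mice.

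**Figure D3:**
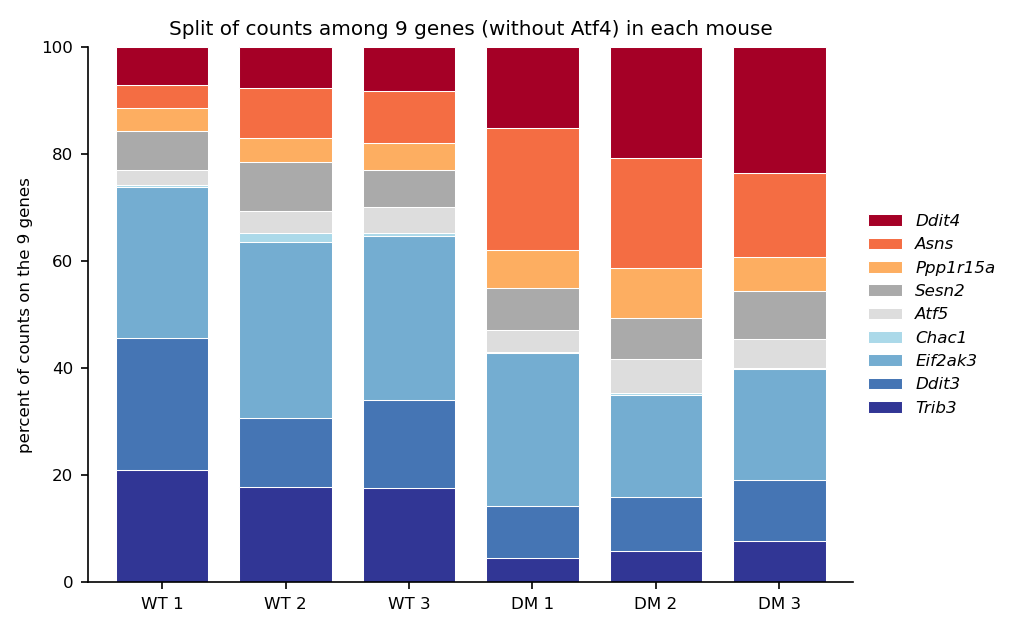
Share of the counts on the 9 members other than Atf4 (y axis, percent) in each of the 6 mice (x axis), stacked by gene. The Trib3 share is 17.7 to 21.0% in WT mice and 4.65 to 7.68% in DM mice, and the Asns and Ddit4 shares are larger in every DM mouse than in any WT mouse.

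Divided by merged exon length, so that genes can be set beside each other, the levels in WT mice were led by Atf4 at 96.5 ± 3.66 CPM per kb. Ddit3 (14.96) and Trib3 (12.6) followed and overlapped each other, then Eif2ak3 (8.0) and Ddit4 (6.39), which did not overlap their neighbours. Asns (4.01), Sesn2 (3.20) and Atf5 (2.77) each overlapped the next gene in that order, Atf5 thus overlapping Ppp1r15a (2.24), and Chac1 was lowest at 0.701, apart from the rest. In DM mice Atf4 again led with 83.6 ± 12.1 CPM per kb, followed by Ddit4 (16.6) and Asns (10.1), so these genes stood next to Atf4, where Ddit3 and Trib3 stood in WT mice. Asns overlapped Ddit3 (8.53), Eif2ak3 (5.83) overlapped Trib3 (4.03), and Trib3, Atf5 (3.84) and Ppp1r15a (3.63) each overlapped the next gene, the last of these being Sesn2 (3.26); Chac1 was lowest at 0.190, apart from the rest.

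**Figure D4:**
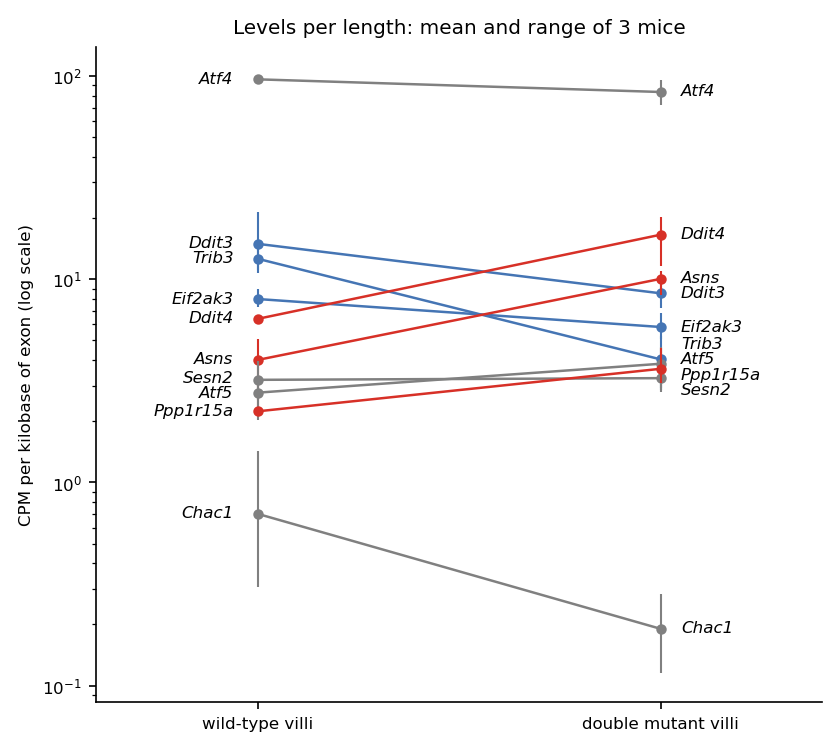
Level per length of the 10 genes (CPM per kb of merged exon, log axis) in WT and DM mice; points are means of 3 mice, vertical lines their range, and a line joins the means of a gene, in colour where it was called. Atf4 is highest in both groups (96.5 in WT and 83.6 in DM mice), and Ddit4 and Asns move above Ddit3 and Trib3 in DM mice.

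Of 19 other genes for eIF2α kinases, phosphatases, eIF2, its exchange factor eIF2B and proteins that regulate or bind them, 6 rose and 2 fell. Over all tested genes 19.7% rose and 17.0% fell. The median log2 fold change of the list was 0.07, or -0.02 without WT mouse 1, against 0.02 for all tested genes. Eif2b3 rose by 2.14 (adjusted p = 0.00491 by edgeR) and Ppp1r15b had the largest fall. WT mouse 2, with 7 counts of Eif2b3, lay under the low-count filter, which asked for at least 3 mice. Eif2b3 thus entered the test only because of the DM mice, where it was high, and its value gives no support. Among 10 tested partners and competitors of ATF4 in the bZIP family, 5 fell and 1 rose, with a median of -0.47. Jdp2 fell by 3.30 (adjusted p = 0.000876 by edgeR), from 3.13 ± 1.10 to 0.312 ± 0.0702 CPM. Its DM mean lay under the 0.498 that the low-count filter asked of at least 3 mice. Jdp2 thus entered the test only because of the WT mice, where it was high, and its value gives no support. Cebpa rose by 0.68 (adjusted p = 0.0106 by edgeR). Jdp2 encodes a repressor that is known to bind CHOP and JUN, and C/EBPα is a differentiation factor.

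The ATF4 targets in amino acid supply that were called went mainly the way of Asns. Of 17 tested genes of 21 listed, 8 rose and 2 fell, with a median log2 fold change of 0.82. Phgdh, which starts serine synthesis, rose by 3.50 (adjusted p = 0.00179 by edgeR), from 0.394 ± 0.269 to 4.39 ± 0.843 CPM. Its WT mean lay under the 0.498 that the low-count filter asked of at least 3 mice. Phgdh thus entered the test only because of the DM mice, where it was high, and its value gives no support. Got1, which exchanges the amino groups of aspartate and glutamate, fell by 1.00 (adjusted p = 0.000659), from 343 ± 38.3 to 172 ± 14.1 CPM. The cytosolic aminoacyl-tRNA synthetases, which charge tRNAs and include known ATF4 targets, rose in 17 of 20 cases with a median of 0.74, and Vars had the largest rise (2.07, adjusted p = 0.000297), from 10.1 ± 2.28 to 42.5 ± 7.72 CPM.

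Of 17 other tested targets of ATF4 and CHOP, 3 rose and 4 fell, shares near the 19.7% and 17.0% of all tested genes, with a median of -0.29. Gdf15, a secreted stress hormone, rose by 2.52 (adjusted p = 0.00499 by edgeR) from 0.450 ± 0.323 to 2.56 ± 0.109 CPM. Its WT mean lay under the 0.498 that the low-count filter asked of at least 3 mice. Gdf15 thus entered the test only because of the DM mice, where it was high, and its value gives no support. Cdkn1a, the cell cycle inhibitor p21, fell by 1.92 (adjusted p = 0.000114 by edgeR) from 334 ± 43.7 to 88.2 ± 13.9 CPM. Cdkn1a is also a p53 target.

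The other arms of the unfolded protein response, those of IRE1-XBP1 and ATF6 with the chaperones of the endoplasmic reticulum, had 9 genes higher and 4 lower of 23 (median 0.28). Over all tested genes 19.7% were higher and 17.0% lower, so the lower share was near that of all genes. The summed share of this list was 0.276 to 0.317% of counts in WT mice and 0.402 to 0.437% in DM mice, higher in every DM mouse. Pdia6, a protein disulfide isomerase, rose by 0.92 (adjusted p = 0.00264 by edgeR), and Dnajb9, a co-chaperone that is a target of XBP1, fell by 0.90 (adjusted p = 0.000983). Scaling by library totals alone, which raised the median of all genes to 0.22, turned this split to 13 higher and 1 lower. Of 9 mitochondrial stress genes, 4 rose and 1 fell (median 0.42). Hspe1, the mitochondrial chaperonin subunit, rose by 1.49 (adjusted p = 0.000967 by edgeR). Oma1, a protease that relays mitochondrial stress, fell by 0.47 (adjusted p = 0.0358 by edgeR, 0.0651 without WT mouse 1). The call of Oma1 was also lost with library size alone, with a replicate block and without WT mouse 2, WT mouse 3, DM mouse 2 or DM mouse 3.

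**Figure D5:**
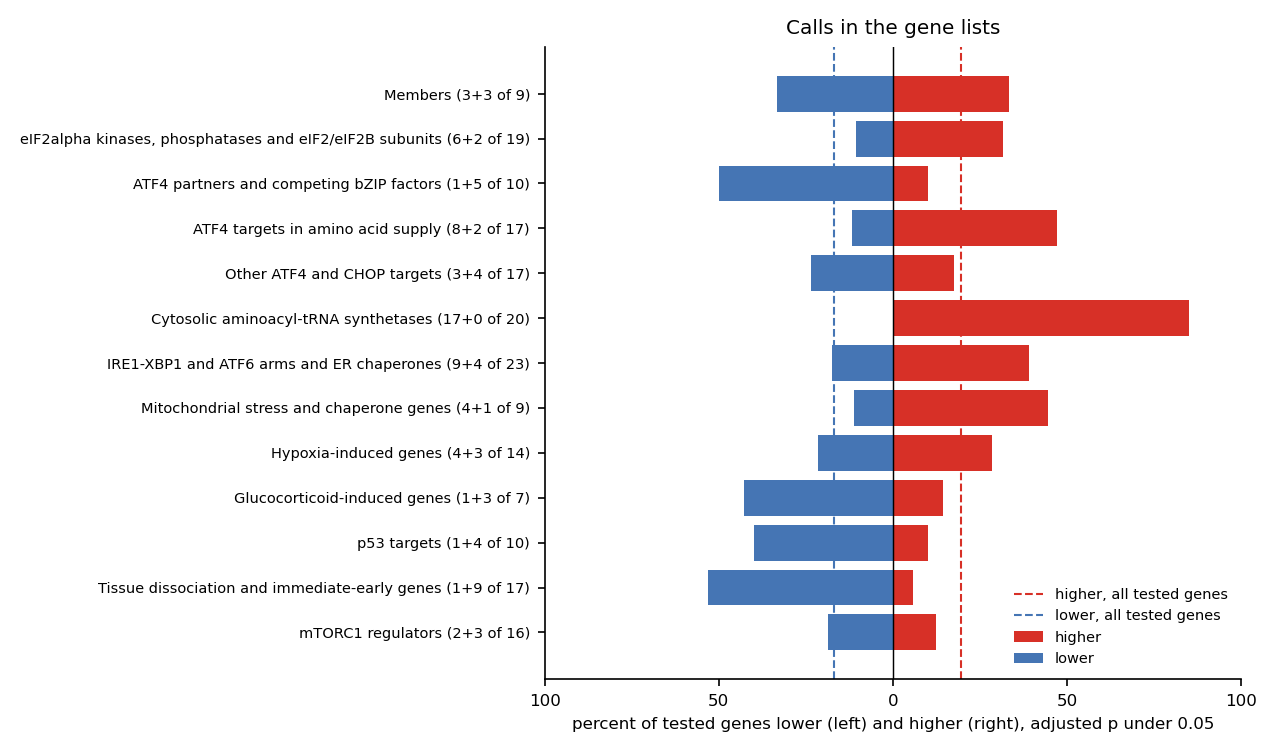
Share of tested genes called higher and lower in DM villi (x axis, percent, lower to the left and higher to the right) for the members and the lists around them (y axis), with dashed lines at the shares over all tested genes, 19.7% higher and 17.0% lower. The tRNA synthetases have 17 of 20 genes higher, and the bZIP partners of ATF4 have 5 of 10 lower.

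Several members answer to signals other than eIF2α phosphorylation, and the genes of those signals gave the following counts. Of 14 genes induced by hypoxia, which induces Ddit4 as well, 4 rose and 3 fell (median -0.05); Ankrd37 rose by 1.87 (adjusted p = 7.31e-05 by edgeR) and Egln3 fell by 1.43 (adjusted p = 0.000379). Of 7 tested glucocorticoid-induced genes, whose inducer also acts on Ddit4, Fkbp5 rose by 2.05 (adjusted p = 0.0102; 0.0546 without WT mouse 1), and Sgk1 (-2.66, adjusted p = 0.00476), Klf9 (-1.03) and Tsc22d3 (-0.81) fell. Of 10 tested p53 targets, a list that includes Sesn2, 4 fell and 1 rose, the last being Ccng1 (0.59, adjusted p = 0.0171); without WT mouse 1 the split was 4 and 4 of 12. Of 17 genes known to be induced by tissue dissociation, a handling signal, 9 fell and 1 rose, with a median of -0.56. Without WT mouse 1, 11 fell and 2 rose. Fosb fell by 2.15 (adjusted p = 0.00215 by edgeR). Hspa8 rose by 0.59 (adjusted p = 0.00758 by edgeR), from 692 to 1043 CPM. The summed share of this list was 0.163 to 0.194% of counts in WT mice and 0.178 to 0.195% in DM mice. These ranges overlapped, but the sum includes the abundant Hspa8, which rose, and so does not show the falls of the other genes. The part of this handling signal in the falls of Ddit3, Trib3 and Eif2ak3 was not tested. Of 16 genes of the pathway of mTORC1, the kinase that Ddit4 and Sesn2 restrain, 2 rose and 3 fell (median -0.10). Eif4ebp1, which also stands in the list of other ATF4 and CHOP targets, was higher by 0.91 (adjusted p = 0.0245 by edgeR). Gatsl2 was lower (-1.41, adjusted p = 0.000145 by edgeR). Without WT mouse 3 or DM mouse 3 the higher calls of the mTORC1 list were lost. Over all tested genes 19.7% were higher and 17.0% lower. The shares of the mTORC1 list lay near these, and both shares of the hypoxia list, on 14 genes, somewhat above them. In the glucocorticoid, p53 and dissociation lists the lower share lay above 17.0% and the higher share below 19.7%.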

How the data were processed

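The samples were 6 poly(A)-enriched RNA-seq libraries of duodenal villus epithelium, 1 per mouse, grouped by their labels. The authors deposited raw counts per gene, made by featureCounts from HISAT2 alignments to mm9, without normalization or pooling; the strand setting and the treatment of reads that match several genes are not given in the sources used here. The methods and the labels differ in the EDTA concentration used to release the epithelium. Replicates were separate mice. Symbols and mm9 positions came from GENCODE, which held 20032 of 20073 Ensembl identifiers; 336 further features were numbered transcripts.

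From the counts, R 4.3.3 was used with edgeR 4.0.16: filterByExpr by group (13346 genes kept), TMM scaling, robust glmQLFit and glmQLFTest of DM against WT, and Benjamini-Hochberg adjustment over all tested genes at 0.05. The standard error of a log2 fold change was taken from the quasi-likelihood F, as the change over the root of F. Depth was 19678507 to 26337318 counts per mouse. The steps were tested on simulated counts.

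The alternatives were RLE size factors, library size alone, no low-count filter, at least 50 counts in total, a replicate block, sex as a covariate, DESeq2 1.42.0, limma-voom (limma 3.58.1), fold thresholds and each mouse left out in turn. The members and lists were chosen with earlier results of these data known. The genes named are the 10 members, in each further list the called genes with the largest rise and the largest fall (every called gene where 4 or fewer were called), and those said to be named for another reason. Position of promoters is on GRCm38.p6, and no coordinate was carried between builds.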

Additional observations from a re-analysis of the deposited data

How the results depend on the processing

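Trib3, Asns and Ddit4 kept their direction and their call under all 8 alternatives of processing and when any of the 6 mice was removed. The members called lower were 1 rather than 3 with library size alone, 1 with a replicate block, 1 with a log2 fold change of at least 1 and 0 with at least 2, where the members called higher also came to 0, since no tested member changed by that much; leaving out a mouse gave 1 to 3 lower (1 without DM mouse 2 or DM mouse 3; without WT mouse 1 the 3 hold Chac1 in place of Ddit3) and 2 to 3 higher. With the replicate number as a block, Ddit3 (-0.76, adjusted p = 0.0827), Eif2ak3 (-0.46, adjusted p = 0.0807) and Ppp1r15a (0.67, adjusted p = 0.0549) were not called by edgeR. In that fit 3844 genes were called in all, against 4906. Same-numbered mice did not deviate together (correlations over genes of 0.02, -0.11 and 0.01). With 3 mice per group, centred within the group, such correlations cannot exclude a pairing. The numbers did follow sex, since mouse 1 of each group was male and mice 2 and 3 were female. Library size alone moved the calls over all genes to 3730 higher and 1425 lower (72.4% higher, against 53.6%), and the median of all genes from 0.02 to 0.22. The difference of Sesn2, not called in any fit, was reversed to -0.11 without WT mouse 3 and -0.08 without DM mouse 3 (-0.11 to 0.21 over the 6 mice). Of 252 counts of called genes in the further lists, 224 stayed within 1.5 times the main count and 28 did not. With the replicate block, the mitochondrial stress list had 3 and the mTORC1 list 3 called genes, against 5 each. Leaving out a mouse gave 3 to 5 called mitochondrial stress genes and 2 to 5 genes of the mTORC1 list (2 without WT mouse 3 or DM mouse 3). There were 4 to 7 other ATF4 and CHOP targets (4 without WT mouse 3) and 6 to 13 genes of the IRE1-XBP1 and ATF6 arms (6 without DM mouse 3). Called hypoxia-induced genes came to 4 to 7 and p53 targets to 5 to 8 (8 without WT mouse 1). The cause of these shifts was not tested. The low counts of Chac1 limit what can be said of it.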
